A study of Mus musculus with 9 samples.

Results

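Chemokine ligands were measured in primary mouse stromal vascular fraction (SVF) cells, which hold the adipocyte progenitors, immune and vascular cells of fat, before and after adipogenic differentiation with and without mizoribine (MIZ). Genes were taken as chemokine ligands if their symbol was Ccl, Cxcl, Xcl or Cx3cl followed by a number with an optional letter. Of the 32285 Ensembl identifiers in each deposited table, 37 met this rule, and 27 of these passed the filter, which asked for 5 counts or more in any 3 of the 9 libraries. Over all genes, 17173 passed. The SVF cells were wild type and, by the study's methods, came from the subcutaneous white adipose tissue of mice 4 to 6 days old. They were either left undifferentiated, differentiated for 6 days with vehicle (DMSO) or differentiated for 6 days with 25 µM MIZ, an inhibitor of IMPDH1 and IMPDH2, the enzymes that open the guanine branch of purine synthesis. Each group had 3 libraries, described by the submitters as biological replicates, and by the methods the cells of individual animals were plated separately. The dose is the one that a figure legend of the study gives for this experiment. Vehicle and MIZ cells shared the induction medium, which contains the glucocorticoid dexamethasone, and a maintenance medium with the PPARγ agonists rosiglitazone and troglitazone. Undifferentiated cells did not receive these media, so medium, time in culture and differentiation cannot be told apart between undifferentiated and vehicle cells.

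Chemokines are small secreted proteins that direct the migration of leukocytes by binding to G protein-coupled receptors. They are divided by the spacing of their first cysteines into the CC, CXC, C and CX3C classes. Inflammatory members are induced by cytokines and by microbial products, often through NF-κB or interferon signalling, whereas homeostatic members are made constitutively and position cells within tissues. In adipose tissue, preadipocytes, adipocytes and resident macrophages all produce them, and Ccl2 is known for the recruitment of monocytes to fat in obesity. In a bulk culture, a lower level may reflect fewer cells of a type or less RNA per cell, and these cannot be told apart.

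Libraries held 28760721 to 55288455 counts. Levels are CPM, the usual scaling of counts to a common library size, on library sizes normalised by TMM. Differences are log2 fold changes, called by edgeR's quasi-likelihood test at an adjusted p (Benjamini-Hochberg over all 17173 genes) under 0.05. Their standard error was derived from that test, as the absolute log2 fold change divided by the square root of its F statistic. It is approximate, above all where counts are few. All groups carry the label of primary adipocytes. The summed CPM of 10 adipocyte markers was 681 to 771 in undifferentiated, 22300 to 23300 in vehicle and 2510 to 2930 in MIZ libraries. That of 8 preadipocyte markers was 14700 to 15900, 3350 to 4200 and 6240 to 8060. Col1a1 made up most of the preadipocyte sum, with means of 13866, 3395 and 5698 CPM in the same order of groups. The summed CPM of 14 macrophage markers was 6190 to 6380 in undifferentiated, 617 to 1080 in vehicle and 1100 to 1490 in MIZ libraries. Lyz2 and Adgre1 had by far the largest rises in CPM between vehicle and MIZ cells, from means of 193 and 191 to 481 and 399. Of the 14 markers, 7 were called higher there, 2 were called lower and 5 were not called. Vehicle replicate 1, the library with the fewest counts, stood apart from the other vehicle libraries. Its summed chemokine level was 1174 CPM beside 803 and 717, and its summed macrophage markers were 1080 CPM beside 617 and 684. The ligands that it changed most are given with and without it, as are some of the other genes.

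The sum of all chemokine ligands was 907 ± 36.1 CPM (SD, n = 3) in undifferentiated, 898 ± 243 in vehicle and 1631 ± 26.6 in MIZ cells. No library of the MIZ group overlapped with those of the other groups in this sum, while the vehicle libraries spread on both sides of the undifferentiated ones. Cxcl12 made up 61.6% ± 1.81 of the summed ligand CPM in undifferentiated cells, 22.9% ± 3.34 in vehicle cells and 7.94% ± 0.728 in MIZ cells. Without Cxcl12, the sum was 348 ± 13.3, 696 ± 213 and 1501 ± 28.7 CPM. These sums were not tested.

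**Figure D1:**
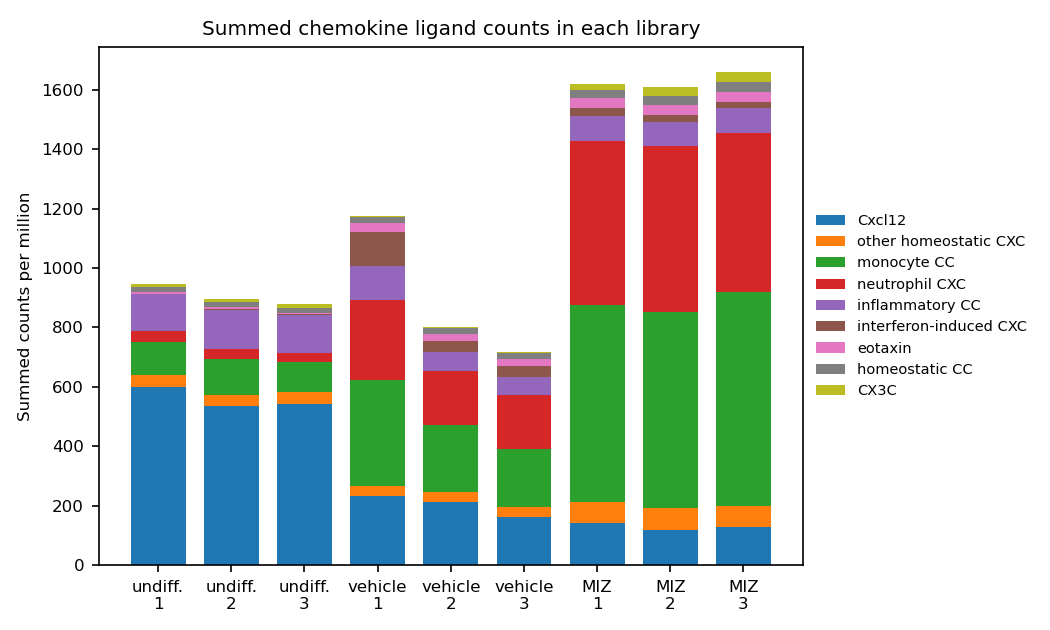
Summed CPM of chemokine ligands (vertical axis) in each of the 9 libraries, stacked by the ligands' roles. Cxcl12 fills most of the undifferentiated bars, and the monocyte CC and neutrophil CXC ligands fill most of the MIZ bars, which end between 1610 and 1661 CPM.

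Levels per kilobase of exon allow a rough comparison between genes. The length taken was that of all annotated exons of a gene, so a gene expressed as a shorter transcript is set too low. On this scale Cxcl12 was highest in undifferentiated cells at 68.4 CPM per kb, followed by Ccl7 at 48.0 and Ccl12 at 45.6. In vehicle cells Ccl2 led at 145 CPM per kb, followed by Ccl7 at 113 and Cxcl1 at 43.3. Ccl7 at 376 CPM per kb, Ccl2 at 330 and Cxcl1 at 180 led in MIZ cells. Of the 27 ligands, 15 had their highest group mean in MIZ cells, 8 in undifferentiated cells and 4 in vehicle cells, where 26.9%, 36.4% and 36.7% of all genes tested did. Ccl17 and Ccl20 (MIZ), Cxcl13 (vehicle) and Ccl24 (undifferentiated) passed the filter only through the group named. Their place in this count was therefore built into the selection. The count takes means only, so ligands whose libraries overlapped between groups, such as Ccl4 and Ccl5, are included.

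Between MIZ and vehicle, 14 of the 27 ligands were higher in MIZ cells and 6 were lower. The background was broad, since 35.9% of all genes tested were called higher and 35.1% lower. The median log2 fold change of the ligands was 0.43 and that of all genes 0.02. Between vehicle and undifferentiated cells, 14 ligands were higher and 9 lower, beside 36.2% and 41.5% of all genes, and the medians were 0.25 and -0.08. Between MIZ and undifferentiated cells, 17 ligands were higher and 7 lower, beside 33.7% and 33.3% of all genes, and the medians were 1.39 and 0.00. Ccl17, Ccl20, Cxcl13 and Ccl24 passed the filter only through the counts of 1 group, so for these 4 a difference was built into the selection. The comparisons share libraries and are not independent of each other.

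**Figure D2:**
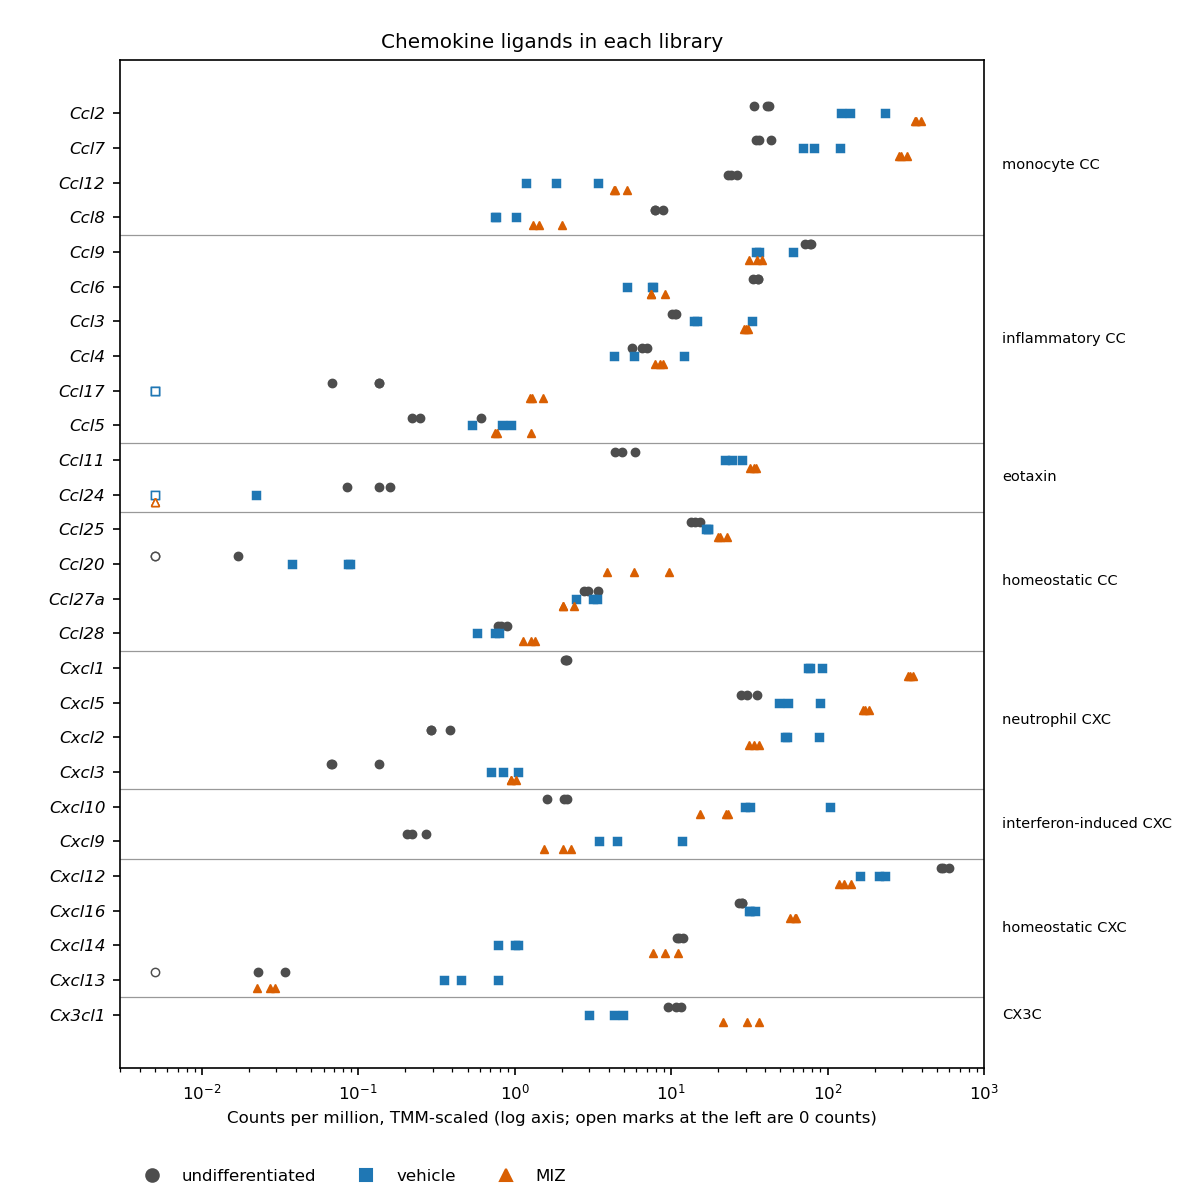
CPM of the 27 ligands that passed the filter (horizontal log axis), with 1 mark for each library and open marks for libraries with 0 counts. Ccl2, Ccl7, Cxcl1 and Cxcl5 stand in the order undifferentiated, vehicle, MIZ, whereas Cxcl2, Cxcl9, Cxcl10 and Cxcl13 are highest in vehicle cells.

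The CC ligands grouped here as monocyte attractants split into a pair that rose with differentiation and a pair that fell. Ccl2 (ENSMUSG00000035385, chr11:82035571-82037453, plus strand), the principal monocyte chemoattractant, had 41.1, 42.0 and 34 CPM in undifferentiated, 233, 139 and 123 in vehicle and 364, 369 and 393 in MIZ libraries. The 3 groups did not overlap. Ccl2 was higher in vehicle than in undifferentiated cells by 2.08 ± 0.20 (adjusted p = 2.62e-06) and higher in MIZ than in vehicle cells by 1.19 ± 0.19 (adjusted p = 0.000212), a 2.28-fold difference. Ccl7, a related ligand encoded next to it, had 36.5, 43.8 and 35.1 CPM in undifferentiated, 120, 81.5 and 70.0 in vehicle and 294, 286 and 322 in MIZ libraries. Its libraries also separated into 3 steps, with rises of 1.23 ± 0.17 and then 1.74 ± 0.17 (adjusted p = 4.5e-05 and 3.02e-06).

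Ccl12 and Ccl8, the other pair of the monocyte group, had their highest levels in undifferentiated cells. Ccl12 had 24.2, 26.2 and 23.0 CPM in undifferentiated, 3.41, 1.82 and 1.18 in vehicle and 4.33, 5.19 and 4.38 in MIZ libraries. It was lower in vehicle than in undifferentiated cells by a log2 fold change of -3.61 ± 0.25 (adjusted p = 1.34e-07) and higher in MIZ than in vehicle cells by 1.20 ± 0.27 (adjusted p = 0.00199). Ccl8 had 8.82, 7.84 and 7.92, then 1.01, 0.751 and 0.756, and then 1.99, 1.44 and 1.30 CPM in the same order of groups. It showed the same order of groups, with log2 fold changes of -3.32 ± 0.18 and 0.96 ± 0.20 (adjusted p = 1.46e-08 and 0.00139). Both remained below the undifferentiated level in MIZ cells, with log2 fold changes of -2.40 ± 0.22 for Ccl12 and -2.36 ± 0.16 for Ccl8 (adjusted p = 3.17e-06 and 2.68e-07). Macrophage markers moved with this pair between undifferentiated and vehicle cells, and only in part between vehicle and MIZ cells. Of the 14 markers, 12 were lower in vehicle than in undifferentiated cells and none was higher, beside 41.5% and 36.2% of all genes. Between MIZ and vehicle 7 were higher and 2 lower, beside 35.9% and 35.1%, with no marker at 0 throughout. Ptprc, Cd68, Csf1r and Itgam (-0.13, -0.21, -0.31 and -0.27) and Cd14 (0.24) were not called. With vehicle replicate 1 left out, 8 were higher and 3 lower, beside 6223 and 6069 of 17003 genes tested. Cd14 was then called higher (0.55 ± 0.06, adjusted p = 7.1e-06) and Cd68 lower (-0.29 ± 0.09, adjusted p = 0.0114). Ptprc and Itgam turned to 0.19 and 0.13 and stayed uncalled. Among those called with all libraries, Adgre1 (F4/80) rose by 1.07 ± 0.21 and the lysozyme gene Lyz2 by 1.32 ± 0.25 in MIZ cells (adjusted p = 0.000914 and 0.000754). Their means were 191 and 193 CPM in vehicle and 399 and 481 in MIZ cells. The mannose receptor Mrc1 had a log2 fold change of -0.79 ± 0.12 and the Fc receptor Fcgr1 of -1.12 ± 0.26 (adjusted p = 9.02e-05 and 0.00287). The part of these markers in the result was not tested.

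Ccl2, Ccl7, Ccl11, Ccl12 and Ccl8 lie in this order in 1 cluster on chromosome 11 (GRCm38, GENCODE release M21), together with Ccl1, which had 2 counts in all libraries. The first 3 rose between undifferentiated and vehicle cells and the next 2 fell, while all 5 rose between vehicle and MIZ cells. The Ccl12 promoter is shown because of these 5 ligands only Ccl12 and Ccl8 had a promoter entry, and that of Ccl12 held the κB-type motif. It carries a TATAAA and, 17 to 9 bases before the start, a κB-type GGANNTTCC match, both in capitals, on chr11:82101735-82101844 (GRCm38.p6, plus strand, RefSeq).
Ccl12: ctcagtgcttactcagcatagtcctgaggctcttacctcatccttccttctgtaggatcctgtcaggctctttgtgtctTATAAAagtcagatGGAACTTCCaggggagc

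**Figure D3:**
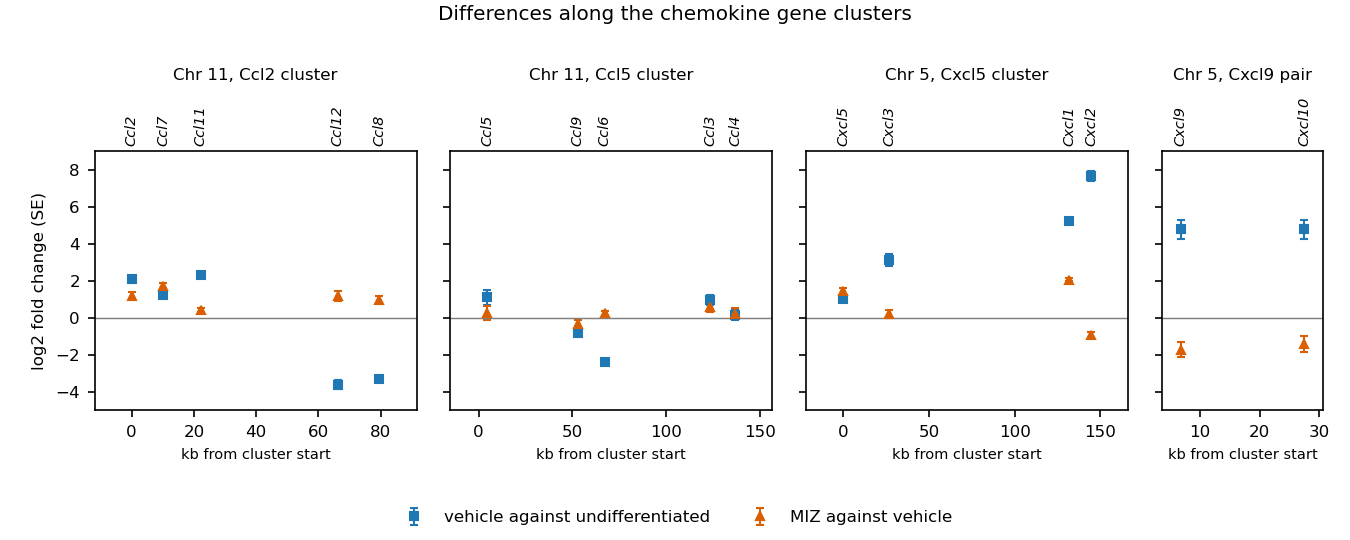
Log2 fold changes with standard errors (vertical axis) of the ligands in 4 gene clusters against the distance of each gene's start from the cluster's first base (kb), for vehicle against undifferentiated (squares) and MIZ against vehicle (triangles). Ccl12 and Ccl8 sit below 0 in the first comparison while their neighbours Ccl2, Ccl7 and Ccl11 sit above it, and Cxcl1 and Cxcl2 lie on opposite sides of 0 in the second.

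The neutrophil-attracting CXC ligands, which act through Cxcr2, included the largest rises with differentiation and differed in direction under MIZ. Cxcl1 (ENSMUSG00000029380, chr5:90891241-90893115, plus strand) had 2.14, 2.16 and 2.08 CPM in undifferentiated, 91.6, 74.9 and 77.1 in vehicle and 335, 353 and 326 in MIZ libraries. The groups were far apart relative to their spread, and Cxcl1 was 38.1-fold higher in vehicle than in undifferentiated cells and 4.17-fold higher in MIZ than in vehicle cells (log2 fold changes of 5.25 ± 0.09 and 2.06 ± 0.07, adjusted p = 6.14e-12 and 7.27e-10). Cxcl2 (ENSMUSG00000058427), its close paralog, had 0.386, 0.292 and 0.290 CPM in undifferentiated, 88.1, 53.8 and 55.4 in vehicle and 31.3, 36.5 and 34 in MIZ libraries. It was 203-fold higher in vehicle than in undifferentiated cells and 1.93-fold lower in MIZ than in vehicle cells (7.66 ± 0.27 and -0.95 ± 0.16, adjusted p = 5.28e-10 and 0.000299). Thus, of 2 neighbouring genes that both rose with differentiation, 1 was higher and 1 was lower under MIZ.

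Cxcl5, also made by epithelial and stromal cells, had 35.4, 30.7 and 28.2 CPM in undifferentiated, 89.8, 55.6 and 48.8 in vehicle and 184, 168 and 175 in MIZ libraries. Its groups did not overlap, and it rose by 1.04 ± 0.19 with differentiation and by 1.45 ± 0.18 under MIZ (adjusted p = 0.000397 and 3.18e-05). Cxcl3 was low throughout, at 0.0683, 0.0674 and 0.137 CPM in undifferentiated, 1.05, 0.708 and 0.845 in vehicle and 1.02, 0.95 and 0.946 in MIZ libraries. It rose by 3.13 ± 0.32 between undifferentiated and vehicle cells (adjusted p = 3.81e-06), whereas its MIZ and vehicle libraries overlapped (0.19 ± 0.23, adjusted p = 0.462). Cxcl2 and Cxcl3 transcripts share a stretch of 116 bases at 98.3% identity, so reads within it could have been assigned to either. Cxcl15, the remaining member of the group, had 5 counts, all in undifferentiated libraries. Of 6 neutrophil markers only 2 passed the filter. The summed level of all 6 was 0.157 to 0.256 CPM in undifferentiated, 0.311 to 0.638 in vehicle and 0.896 to 1.06 in MIZ libraries.

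Cxcl1, Cxcl2 and Cxcl3 share the letters GGAATTTCC, a match to the κB-type motif GGANNTTCC, 70 to 62, 96 to 88 and 72 to 64 bases before their RefSeq starts. The last 110 bases before each start are shown because all 3 genes rose with differentiation, and under MIZ Cxcl1 was higher, Cxcl2 lower and Cxcl3 not called. They lie on the plus strand at chr5:90891135-90891244, chr5:90903789-90903898 and chr5:90785991-90786100 (GRCm38.p6), with the matches to GGANNTTCC and TATAAA in capitals.
Cxcl1: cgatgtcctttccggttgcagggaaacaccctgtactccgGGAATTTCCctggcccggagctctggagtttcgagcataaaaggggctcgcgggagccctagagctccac
Cxcl2: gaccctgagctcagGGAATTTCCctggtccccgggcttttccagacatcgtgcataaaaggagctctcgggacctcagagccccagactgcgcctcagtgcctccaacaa
Cxcl3: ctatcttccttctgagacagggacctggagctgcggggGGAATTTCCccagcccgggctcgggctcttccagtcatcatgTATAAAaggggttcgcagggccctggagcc
Of the 27 ligands that passed the filter, 19 had a promoter entry. In the 250 bases before the start and on both strands, GGANNTTCC was found in 5 of these 19 (26.3%), namely Ccl12, Cxcl1, Cxcl2, Cxcl3 and Cxcl10, and in 4.12% of the 27025 genes with an entry. TATAAA was found in 8 of 19 (42.1%) and in 14.3% of all genes. A match describes the sequence only. The motifs do not overlap each other in the promoters shown.

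The interferon-induced ligands of Cxcr3 were highest in vehicle cells. Cxcl10 (ENSMUSG00000034855) had 1.61, 2.07 and 2.17 CPM in undifferentiated, 103, 29.5 and 32.1 in vehicle and 22.9, 22.4 and 15.4 in MIZ libraries. Every vehicle library exceeded every MIZ library, and replicate 1 exceeded the other vehicle libraries together. Cxcl10 was higher in vehicle than in undifferentiated cells by 4.78 ± 0.51 (adjusted p = 6.23e-06) and lower in MIZ than in vehicle cells by a log2 fold change of -1.41 ± 0.41 (adjusted p = 0.00971). Without vehicle replicate 1, these values were 3.98 ± 0.17 and -0.61 ± 0.14 (adjusted p = 2.68e-10 and 0.00149). Cxcl9 had 0.205, 0.270 and 0.222 CPM in undifferentiated, 11.8, 4.53 and 3.47 in vehicle and 1.54, 2.31 and 2.04 in MIZ libraries. Its vehicle libraries again lay above all others, with log2 fold changes of 4.78 ± 0.53 and -1.72 ± 0.41 (adjusted p = 8.18e-06 and 0.0029), or 4.10 ± 0.25 and -1.04 ± 0.19 without vehicle replicate 1 (adjusted p = 8.55e-09 and 0.000271). Both genes were above the undifferentiated level in MIZ cells, by 3.37 ± 0.52 and 3.06 ± 0.58 (adjusted p = 0.000163 and 0.000789). Cxcl10 shares exon sequence with Art3 on the opposite strand, which had 542 counts in vehicle libraries where Cxcl10 had 5564.

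The Cxcl10 promoter is shown because, of the 19 ligands past the filter that had a promoter entry, it alone holds both the κB-type motif and a match to AAANNGAAA, the core of interferon response elements. The former lies 158 to 150 and the latter 212 to 204 bases before the start, in capitals below, on the minus strand of chr5:92348890-92349139 (GRCm38.p6, RefSeq). AAANNGAAA was found in 3 of 19 ligand promoters (15.8%), those of Ccl28, Cxcl10 and Cxcl14, and in 10.8% of all promoters.
Cxcl10: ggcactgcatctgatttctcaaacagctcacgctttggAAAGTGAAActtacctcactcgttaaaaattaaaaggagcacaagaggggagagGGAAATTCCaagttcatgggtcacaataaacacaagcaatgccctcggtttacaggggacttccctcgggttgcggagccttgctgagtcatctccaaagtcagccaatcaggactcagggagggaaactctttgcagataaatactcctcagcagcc

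Other interferon-responsive genes were also described. Of 13 tested, 10 were higher and 1 lower in vehicle than in undifferentiated cells, beside 36.2% and 41.5% of all genes. Between MIZ and vehicle none was higher and 10 were lower, beside 35.9% and 35.1%, and the median was -1.06 on the log2 scale. Without vehicle replicate 1, 10 were lower and 1, Gbp2, was higher (0.57 ± 0.09, adjusted p = 6.89e-05), beside 6069 lower and 6223 higher of 17003 genes tested. Rsad2 (viperin) had 41.3, 21.1 and 20.2 CPM in vehicle and 7.52, 6.19 and 3.16 in MIZ libraries (-2.26 ± 0.32, adjusted p = 8.14e-05). Ifit3 and Ifit1, which encode antiviral RNA-binding proteins, had log2 fold changes of -1.47 ± 0.34 and -1.25 ± 0.35 (adjusted p = 0.00265 and 0.00761). Without vehicle replicate 1, Rsad2, Ifit3 and Ifit1 were at -1.86 ± 0.22, -1.02 ± 0.24 and -0.77 ± 0.24 (adjusted p = 7.39e-06, 0.00199 and 0.0111). The summed CPM of the list was 1010 in vehicle replicate 1 beside 612 and 553 in the other vehicle libraries, and 320 to 445 in MIZ libraries. Ifngr1, the ligand-binding chain of the interferon-γ receptor, was lower in MIZ than in vehicle cells (log2 fold change -0.86 ± 0.05) and its partner chain Ifngr2 was higher by 0.71 ± 0.07 (adjusted p = 6.55e-08 and 3.43e-06).

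The homeostatic CXC ligands were led by Cxcl12 (ENSMUSG00000061353), the ligand of Cxcr4 that retains haematopoietic cells in stromal niches. Cxcl12 had 599, 534 and 544 CPM in undifferentiated, 233, 213 and 161 in vehicle and 142, 119 and 127 in MIZ libraries. Its libraries formed 3 separate descending steps, with log2 fold changes of -1.47 ± 0.12 for vehicle against undifferentiated and -0.64 ± 0.12 for MIZ against vehicle (adjusted p = 5.7e-07 and 0.000551). Cxcl14, a ligand of constitutive tissue expression, had 11.2, 11 and 11.8 CPM in undifferentiated, 1.05, 1.01 and 0.778 in vehicle and 11.1, 9.18 and 7.63 in MIZ libraries. It was 12.1-fold lower in vehicle than in undifferentiated cells and 9.98-fold higher in MIZ than in vehicle cells (-3.60 ± 0.17 and 3.32 ± 0.17, adjusted p = 5.28e-09 and 1.68e-08), and its MIZ and undifferentiated libraries overlapped (-0.28 ± 0.13, adjusted p = 0.0777). Most preadipocyte markers moved with Cxcl14. All 8 were lower in vehicle than in undifferentiated cells, beside 41.5% of all genes. Between MIZ and vehicle 5 of 8 were higher and 1 lower, beside 35.9% and 35.1%. Among them were Pdgfrb (2.69 ± 0.06), Thy1 (3.14 ± 0.21) and Pdgfra (1.25 ± 0.11) upwards and Cd34 (-1.02 ± 0.21) downwards (adjusted p = 3.41e-11, 1.39e-07, 1.95e-06 and 0.00137). No marker of this list was at 0 throughout, and the part of these markers in the Cxcl14 result was not tested.

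Cxcl16, which is made as a transmembrane protein and shed by Adam10, had 28.4, 28.3 and 27.2 CPM in undifferentiated, 31.4, 32.1 and 34.2 in vehicle and 57.6, 62.1 and 63.3 in MIZ libraries. It rose slightly with differentiation (0.22 ± 0.05, adjusted p = 0.00333) and by 0.90 ± 0.05 under MIZ (adjusted p = 6.14e-08). Its transcript shares 552 bases with Zmynd15 on the opposite strand, which had 733 counts in MIZ libraries where Cxcl16 had 6972. Cxcl13, the B cell chemoattractant of lymphoid follicles, had 0.788, 0.451 and 0.356 CPM in vehicle libraries, 58 counts in all, and 3 counts in each of the other groups. The vehicle level was 18.8 times the MIZ level (exact 95% counting interval 6.11 to 93.7) and 24.1 times the undifferentiated level (7.83 to 120), and both differences were called by edgeR (adjusted p = 9.17e-05 and 3.27e-05). Cxcl13 passed the filter only through its vehicle counts, so a difference was built into its selection. Cxcl17 had 0 counts.

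Fractalkine, Cx3cl1 (ENSMUSG00000031778), the membrane-anchored CX3C ligand that is likewise shed by Adam10 and Adam17, had 10.7, 9.62 and 11.5 CPM in undifferentiated, 3.00, 4.89 and 4.29 in vehicle and 21.4, 30.5 and 36.2 in MIZ libraries. It fell by 1.36 ± 0.21 on the log2 scale with differentiation and was 7.06-fold higher in MIZ than in vehicle cells (2.82 ± 0.21, adjusted p = 0.000116 and 3.23e-07). MIZ cells also exceeded undifferentiated cells (1.46 ± 0.19, adjusted p = 3.94e-05), and none of the 3 groups overlapped. Its neighbour on chromosome 8, Ccl17, a ligand of Ccr4 made by dendritic cells, had 1.29, 1.25 and 1.51 CPM in MIZ libraries, 0.136, 0.135 and 0.0683 in undifferentiated libraries and 0 counts in vehicle libraries. It was thus at least 52.9-fold higher in MIZ than in vehicle cells, taking 3 counts over the vehicle group as the floor, and 12-fold higher in MIZ than in undifferentiated cells (3.58 ± 0.31), both called by edgeR (adjusted p = 1.46e-06 and 8.61e-06). In vehicle cells it was at least 4.29-fold lower than in undifferentiated cells (edgeR, adjusted p = 0.0013). Ccl17 passed the filter only through its MIZ counts, so a difference was built into its selection. The third gene of this cluster, Ccl22, also a Ccr4 ligand, had 3 counts in all, 1 in each group.

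**Figure D4:**
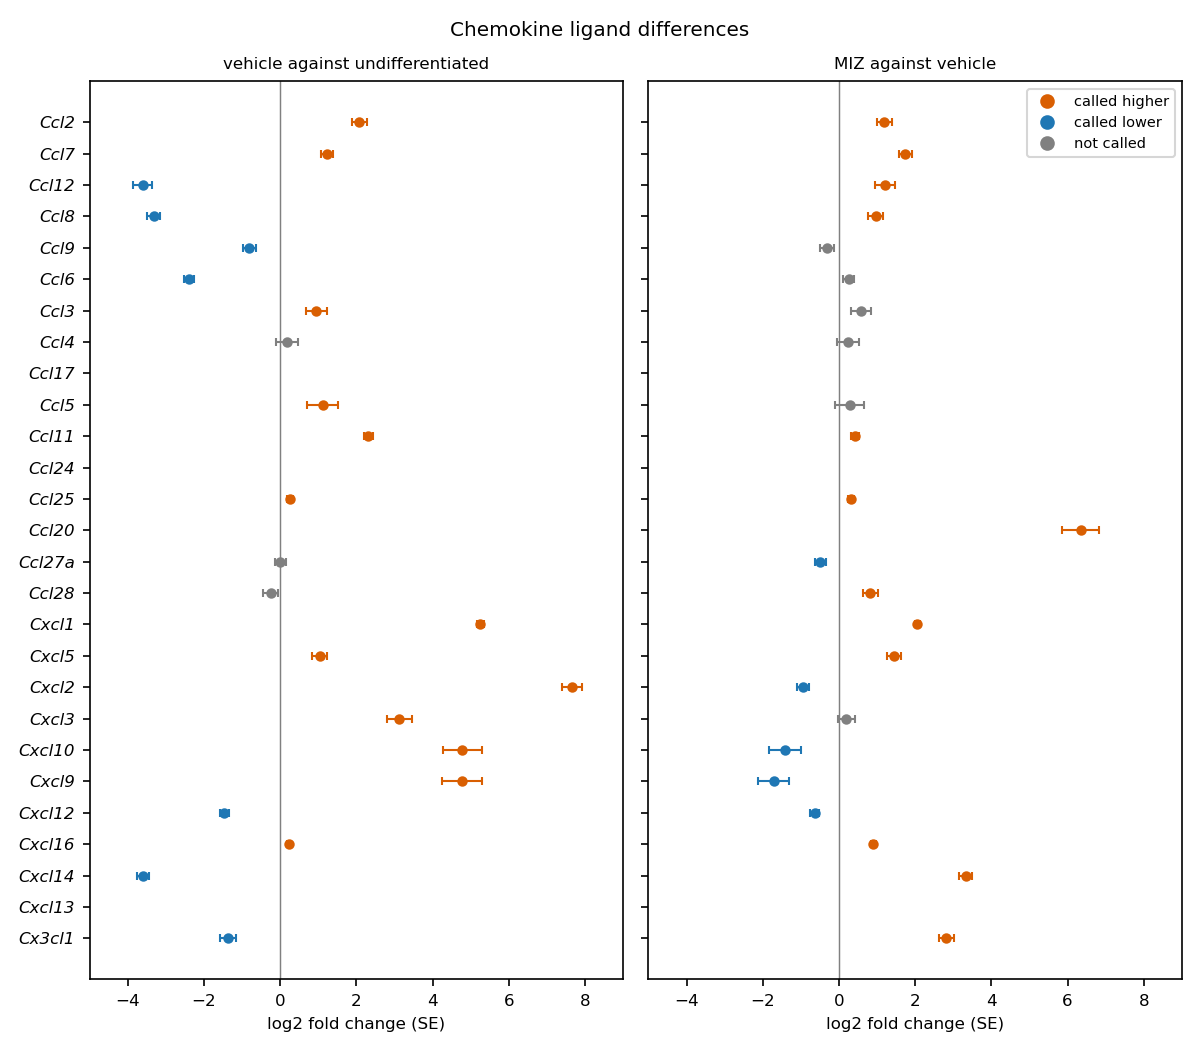
Log2 fold changes of each ligand for vehicle against undifferentiated (left) and MIZ against vehicle (right), with standard errors, coloured by edgeR's call. Ccl20, Cxcl14 and Cx3cl1 show the largest rises under MIZ and Cxcl9 and Cxcl10 the largest falls of those drawn. Ccl20 passed the filter only through its MIZ counts. Genes with 3 or fewer counts in either group compared are not drawn.

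Among the inflammatory CC ligands, Ccl6 and Ccl9 fell with differentiation, as macrophage markers did, and Ccl3 and Ccl5 rose. Ccl9, a myeloid cell attractant, had 71.4, 78.9 and 77.2 CPM in undifferentiated, 59.97, 34.7 and 36.6 in vehicle and 35.4, 31.4 and 37.9 in MIZ libraries. Ccl6, a related ligand of macrophages, had 36.0, 36.2 and 33.5, then 7.65, 7.53 and 5.20, and then 9.17, 7.47 and 7.39 CPM. Both were lower in vehicle than in undifferentiated cells, by log2 fold changes of -0.81 ± 0.17 and -2.38 ± 0.13 (adjusted p = 0.00121 and 2.51e-08), and their MIZ and vehicle libraries overlapped (-0.32 ± 0.17 and 0.25 ± 0.14, adjusted p = 0.125 and 0.132). Ccl9 passed the threshold between MIZ and vehicle only when vehicle replicate 2 or 3 was left out (-0.48 ± 0.17 and -0.45 ± 0.18, adjusted p = 0.0304 and 0.0448). The part of the macrophage markers in these results was not tested.

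Ccl3 and Ccl4, inflammatory attractants of monocytes and T cells, turned on vehicle replicate 1. Ccl3 had 10.1, 10.7 and 10.5 CPM in undifferentiated, 33.1, 14.6 and 14.0 in vehicle and 30.3, 31.1 and 29.1 in MIZ libraries, and Ccl4 had 5.61, 6.49 and 7, then 12, 5.82 and 4.34, and then 8.86, 7.85 and 8.48 CPM. The Ccl3 vehicle libraries all lay above the undifferentiated ones, with replicate 1 above the MIZ libraries and the others below them. Those of Ccl4 overlapped with both other groups. With all libraries, neither passed the threshold between MIZ and vehicle (0.58 ± 0.26 and 0.23 ± 0.29, adjusted p = 0.0662 and 0.5), and without vehicle replicate 1 both were higher in MIZ cells (1.07 ± 0.06 and 0.72 ± 0.14, adjusted p = 7.9e-09 and 0.00046). Ccl3 was higher in vehicle than in undifferentiated cells (0.95 ± 0.27, adjusted p = 0.00784). Ccl4 was not called there (0.17 ± 0.29, adjusted p = 0.607), and without vehicle replicate 1 it was lower in vehicle cells (-0.32 ± 0.14, adjusted p = 0.0472). Ccl5, an inflammatory ligand typical of T cells, had 0.250, 0.607 and 0.222 CPM in undifferentiated, 0.825, 0.944 and 0.534 in vehicle and 0.747, 1.28 and 0.769 in MIZ libraries. It was called higher in vehicle than in undifferentiated cells (1.11 ± 0.41, adjusted p = 0.0292) although the libraries overlapped, its MIZ and vehicle libraries overlapped too (0.28 ± 0.37, adjusted p = 0.519), and the first call was lost without undifferentiated replicate 1 or 3 or vehicle replicate 2 (adjusted p = 0.0976, 0.12 and 0.115). Of 7 T cell markers, 2 were at 0 in every library, and the summed level of all 7 was 0.068 to 1.48 CPM.

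The eotaxin Ccl11, which attracts eosinophils through Ccr3, had 5.91, 4.85 and 4.35 CPM in undifferentiated, 28.5, 24.6 and 22.2 in vehicle and 34.9, 32.0 and 33.8 in MIZ libraries. Its libraries separated into 3 steps with a large rise with differentiation (2.32 ± 0.12, adjusted p = 1.12e-08) and a small one under MIZ (0.43 ± 0.11, adjusted p = 0.00389). Ccl24, a second eotaxin, had 18 counts in undifferentiated libraries, 1 in vehicle libraries and none in MIZ libraries. Its undifferentiated level was 14.5 times the vehicle level (exact 95% counting interval 2.28 to 603) and at least 4.68-fold higher than the MIZ level. Both differences were called by edgeR (adjusted p = 0.00574 and 0.0028). Ccl24 passed the filter only through its undifferentiated counts, so a difference was built into its selection. Ccl26 had 0 counts.

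Of the CC ligands with mainly homeostatic or mucosal roles, Ccl20 (ENSMUSG00000026166), the ligand of Ccr6 that is also induced by cytokines, was close to absent outside MIZ cells. It had 3.92, 5.78 and 9.67 CPM in MIZ libraries, 713 counts in all, beside 9 counts in vehicle and 1 in undifferentiated libraries. All MIZ libraries lay above all others, and Ccl20 was 81.4-fold higher in MIZ than in vehicle cells (6.35 ± 0.49, adjusted p = 4.7e-07). Ccl20 passed the filter only through its MIZ counts, so a difference was built into its selection. The ratio of vehicle to undifferentiated was 11.2 (exact 95% counting interval 1.55 to 491), and that difference was not called by edgeR (adjusted p = 0.0952) but was called by DESeq2 (adjusted p = 0.0144). The single undifferentiated count lay in replicate 3, so without that library the group was at 0 and the edgeR adjusted p was 0.101.

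Ccl28, a mucosal ligand, had 0.818, 0.787 and 0.887 CPM in undifferentiated, 0.75, 0.794 and 0.578 in vehicle and 1.13, 1.36 and 1.27 in MIZ libraries. The MIZ libraries lay above the rest, with a rise of 0.83 ± 0.19 over vehicle (adjusted p = 0.00277), while vehicle and undifferentiated libraries overlapped (-0.24 ± 0.20, adjusted p = 0.279). Ccl25, the thymic and intestinal ligand of Ccr9, differed little, with group means of 14.3, 17.0 and 21.2 CPM and log2 fold changes of 0.25 ± 0.07 for vehicle against undifferentiated and 0.31 ± 0.07 for MIZ against vehicle (adjusted p = 0.00803 and 0.00236). It overlaps Elavl1 on the opposite strand, which had 12682 counts in vehicle libraries beside 2007 of Ccl25. Ccl27a, the skin ligand of Ccr10, had 3.41, 2.76 and 2.94 CPM in undifferentiated, 2.48, 3.35 and 3.18 in vehicle and 2.40, 2.04 and 2.04 in MIZ libraries. Undifferentiated and vehicle libraries overlapped (0.00 ± 0.15, adjusted p = 0.997). It was lower in MIZ than in vehicle cells (-0.49 ± 0.16, adjusted p = 0.0161), a call that was lost without vehicle replicate 2 or MIZ replicate 2 (adjusted p = 0.0587 and 0.0543). It overlaps Il11ra1, which had 3529 counts in vehicle libraries beside 365 of Ccl27a, and it has near-identical copies, so that its counts are uncertain. The strand setting of the counting was not given in the sources used here, and without strand the reads of such pairs cannot be told apart. Ccl19, Ccl21a, Ccl27b and Xcl1 had 0 counts and Ccl21b had 1. Ccl19, Ccl21a, Ccl21b and Ccl27b also have near-identical copies in the annotation, so a low count does not show that they were silent.

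The receptors of these ligands were mostly low. The summed level of 18 chemokine receptors was 84.0 to 96.5 CPM in undifferentiated, 8.72 to 10.3 in vehicle and 5.30 to 9.49 in MIZ libraries. The vehicle and MIZ ranges thus overlapped. Of these receptors, 8 passed the filter. Between vehicle and undifferentiated cells 6 were lower and 1 higher, beside 41.5% and 36.2% of all genes. Between MIZ and vehicle 4 were lower and 3 higher, beside 35.1% and 35.9%. Ccr1, a receptor of myeloid cells for inflammatory CC ligands, had means of 45.0 CPM in undifferentiated, 2.93 in vehicle and 1.38 in MIZ cells. It was lower in MIZ than in vehicle cells (-1.10 ± 0.21, adjusted p = 0.000633). Cxcr4, the receptor of Cxcl12, had means of 11, 0.959 and 0.440 CPM, and its MIZ and vehicle libraries overlapped although the difference was called (-1.16 ± 0.34, adjusted p = 0.0105). The fractalkine receptor Cx3cr1, itself a macrophage marker, had means of 5.04, 0.277 and 1.35 CPM and was higher in MIZ than in vehicle cells (2.16 ± 0.41, adjusted p = 0.000622), as its ligand was. Cxcr3, the receptor of Cxcl9 and Cxcl10, had 2.59 CPM in undifferentiated cells and 0.0250 and 0.149 in vehicle and MIZ cells, its vehicle counts being 2, both in replicate 1. Ccr2 and Cxcr2, the main receptors of Ccl2 and Cxcl1, had mean levels of at most 0.230 and 0.0271 CPM in any group.

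The receptors with Ackr symbols bind chemokines without G protein signalling. With Ccrl2 they were listed here as atypical receptors, which differed among themselves. Of 4 that passed the filter, 3 were higher in vehicle than in undifferentiated cells, beside 36.2% of all genes. Ackr4 was lower there (-2.70 ± 0.97, adjusted p = 0.0256), beside 41.5% of all genes. Between MIZ and vehicle 3 were lower, beside 35.1%. The call of Ackr1 in the first comparison (0.69 ± 0.28, adjusted p = 0.0446) was lost without vehicle replicate 1 (adjusted p = 0.0802). The summed level of all 5 was 7.06 to 7.91 CPM in undifferentiated, 24.5 to 36.5 in vehicle and 7.60 to 13.8 in MIZ libraries. Ackr3, a scavenger of Cxcl12, had 5.50, 5.12 and 5.68 CPM in undifferentiated, 18.8, 30.9 and 23.1 in vehicle and 12.5, 8.01 and 6.41 in MIZ libraries. Ccrl2 and Ackr1 had means of 3.97 and 1.32 CPM in vehicle and 0.474 and 0.559 in MIZ cells. Ackr3, Ccrl2 and Ackr1 were lower in MIZ than in vehicle cells, with log2 fold changes of -1.43 ± 0.23, -3.01 ± 0.29 and -1.25 ± 0.31 (adjusted p = 0.000189, 2.94e-06 and 0.00393).

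Of 9 enzymes and binding proteins that shed, trim or hold chemokines, 3 were higher, 3 lower and 3 not called between MIZ and vehicle, shares close to the 35.9% and 35.1% of all genes. Adam10, the sheddase named above, had 160, 162 and 161 CPM in undifferentiated, 79.1, 69.0 and 66.9 in vehicle and 148, 157 and 158 in MIZ libraries (1.11 ± 0.06 for MIZ against vehicle, adjusted p = 3.04e-08). The matrix metalloproteinases Mmp9 and Mmp14 rose by 2.41 ± 0.21 and 1.46 ± 0.10 (adjusted p = 1.37e-06 and 2e-07). Tnfaip6, which binds chemokines, Mmp12 and Adam17 were lower, with log2 fold changes of -2.64 ± 0.16, -2.49 ± 0.24 and -0.22 ± 0.06 (adjusted p = 5.95e-08, 3.34e-06 and 0.00813).

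Genes of the NF-κB pathway and its targets, none of them a chemokine, were mostly higher in both differentiated groups than in undifferentiated cells. In vehicle cells 23 of 28 were higher and 2 lower, beside 36.2% and 41.5% of all genes. In MIZ cells 25 were higher and none lower, beside 33.7% and 33.3%. Between MIZ and vehicle 12 were higher and 7 lower with all libraries, beside 35.9% and 35.1% of all genes. Without vehicle replicate 1, 18 were higher and 5 lower, beside 6223 and 6069 of 17003 genes tested. Csf1, the macrophage growth factor, was higher in MIZ than in vehicle cells by 2.39 ± 0.13 (adjusted p = 1.99e-08), with means of 412, 317 and 1661 CPM in undifferentiated, vehicle and MIZ cells. The adhesion molecule Vcam1 and the NF-κB cofactor Nfkbiz were higher by 1.34 ± 0.22 and 1.28 ± 0.08 (adjusted p = 0.000199 and 1.15e-07). Interleukin-1β (Il1b), the acute-phase gene Saa3 and the granulocyte growth factor Csf3 were lower, with log2 fold changes of -3.06 ± 0.74, -1.62 ± 0.30 and -1.26 ± 0.11 (adjusted p = 0.00324, 0.00052 and 1.92e-06). Il1b had 26.1 CPM in vehicle replicate 1 beside 5.34 and 2.94 in the other vehicle libraries and 1.09 to 1.51 in MIZ libraries, and without that replicate its log2 fold change was -1.65 ± 0.29 (adjusted p = 0.000249). The summed CPM of the list was 5300 in vehicle replicate 1 beside 3770 and 3140 in the other vehicle libraries, and 4670 to 4770 in MIZ libraries. Among 18 receptors and adaptors of inflammatory cytokines, 7 were higher and 6 lower between MIZ and vehicle, again close to the shares over all genes. The interleukin-1 receptor chains Il1r1 and Il1rap rose by 0.93 ± 0.06 and 1.27 ± 0.15 (adjusted p = 1.23e-07 and 2.21e-05), whereas Il17rc and the adaptor Myd88 were lower, with log2 fold changes of -1.32 ± 0.06 and -0.80 ± 0.12 (adjusted p = 7.64e-09 and 8.45e-05).

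Set against undifferentiated cells, MIZ cells had the largest differences in Ccl20, Cxcl1 and Cxcl2. Cxcl3 and Cxcl5, the other neutrophil-attracting ligands past the filter, rose less, by 3.32 ± 0.31 and 2.48 ± 0.19 (adjusted p = 3.51e-06 and 7.41e-07). Cxcl1 was 159-fold and Cxcl2 105-fold higher (7.31 ± 0.10 and 6.71 ± 0.27, adjusted p = 1.27e-11 and 7.42e-09). The ratio of Ccl20 was 914 with an exact 95% counting interval of 163 to 36132 (edgeR, adjusted p = 2.88e-07). A difference was built into its selection, since it passed the filter only through its MIZ counts. Ccl2 and Ccl7 were 9.63-fold and 7.83-fold higher (adjusted p = 1.82e-07 and 9.59e-08), Ccl11 was 6.70-fold higher and Ccl3 2.89-fold higher (adjusted p = 1.07e-08 and 0.000424). Cxcl12, Ccl6 and Ccl9 were lower, by 4.32-fold, 4.38-fold and 2.18-fold (adjusted p = 8.5e-08, 1.41e-07 and 0.000162). Ccl4, Cxcl13 and Cxcl14 were not called (adjusted p = 0.243, 0.804 and 0.0777). Cxcl14 was called lower without MIZ replicate 1 (-0.43, adjusted p = 0.0106), and Ccl4 was called higher without vehicle replicate 1 (0.40, adjusted p = 0.00968). Both were also called when the model held only the 6 libraries compared (adjusted p = 0.0488 and 0.00523).

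Other attractants outside the symbol rule included the chemerin gene Rarres2 and the cytokine Mif, both lower in MIZ than in vehicle cells (-0.61 ± 0.11 and -1.21 ± 0.09, adjusted p = 0.000361 and 3.28e-07), and Cklf, which was higher (1.32 ± 0.13, adjusted p = 3.49e-06). Of 5 such genes, 2 were higher, 2 lower and 1 was not called, beside 35.9% higher and 35.1% lower over all genes.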

How the data were processed

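RNA of 9 libraries of primary mouse SVF cells was sequenced as paired reads after ribosomal RNA depletion. By the submitters' processing notes and the study's methods, the authors' reads passed through Trim Galore 0.6.7 for trimming and were then placed on mm10 (GRCm38). The deposited values are raw counts per gene, not normalized. STAR's gene counting is named in the methods and HTSeq in the labels, and the annotation release and strand setting are not given in the sources used here. Identifiers were mapped to symbols for 32158 of 32285 genes. A further gene symbol that meets the rule, Cxcl11, was not analysed here.

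Counts were analysed with R 4.3.3 and edgeR 4.0.16. The filter required 5 or more counts in any 3 libraries, and 1 quasi-likelihood model was fitted to all 9 libraries after TMM normalization (biological coefficient of variation 0.0806). MIZ was compared with vehicle and each with undifferentiated cells, adjusted over all genes by the Benjamini-Hochberg method. The procedure was tested on simulated data. Alternatives were DESeq2 1.42.0, RLE and upper-quartile scaling, other filters, a replicate block, fits restricted to the 6 libraries of a comparison, and leaving out each library in turn. The fit of the gene lists without vehicle replicate 1 was added after seeing the data. The precision rests on 3 libraries a group, and exact intervals for low counts cover counting error only.

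The members and gene lists were chosen with earlier results of these data known. All ligands past the filter are named. From the lists of receptors, processing enzymes, NF-κB and interferon genes, cytokine receptors, other attractants and markers, up to 3 rises and 3 falls between MIZ and vehicle were eligible (called, no overlap of libraries, at least 1 CPM in a group), and receptors at 1 CPM or more. Not every eligible gene is reported here. Endothelial, lymphatic, mesothelial and mast cell markers were also summed. Lengths and positions are from GENCODE release M21, promoters from RefSeq (GRCm38.p6), and shared sequence (at least 95% identity over 100 bases) from blastn 2.17.0. Figures were drawn with matplotlib.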

Additional observations from a re-analysis of the deposited data

How the results depend on the processing

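The numbers of ligands called were within 1.5 times the reported ones under every alternative run. Leaving out each library in turn gave 13 to 16 ligands higher and 5 to 6 lower for MIZ against vehicle, 12 to 14 and 8 to 10 for vehicle against undifferentiated and 14 to 18 and 5 to 8 for MIZ against undifferentiated. The deviations of same-numbered libraries from their group means had correlations from -0.0447 to 0.0630. With 3 libraries a group, these values cannot show whether same-numbered libraries came from the same animals. With the replicate number as a block, 15 ligands were higher and 6 lower in MIZ than in vehicle cells, Ccl3 being added (0.64 ± 0.24, adjusted p = 0.0418), and 15 were higher and 9 lower in vehicle than in undifferentiated cells, Ccl20 being added (adjusted p = 0.00715). Over single ligands and alternatives, 1227 fits kept direction and call, 11 lost a call, 13 gained one and 10 turned direction. Those that turned were all uncalled in the reported fit. Ccl27a, reported at 0.00 for vehicle against undifferentiated, became -0.00130 with no filter, -0.0731 with upper-quartile scaling, and between -0.0703 (without vehicle replicate 2) and 0.113 (without vehicle replicate 1) when single libraries were left out. For MIZ against vehicle, leaving out single libraries gave -0.0109 (without MIZ replicate 2) to 0.48 for Ccl5 and -0.0667 (without vehicle replicate 3) to 0.72 (without vehicle replicate 1) for Ccl4. Likewise Ccl4 ranged from -0.32 (without vehicle replicate 1) to 0.46 for vehicle against undifferentiated, and Cxcl13, with 3 counts in each group, from -0.15 (without undifferentiated replicate 2) to 1.02 for MIZ against undifferentiated. The calls of Ccl5 and Ccl28 for MIZ against undifferentiated were lost without MIZ replicate 2 (adjusted p = 0.0526 and 0.0527), that of Ccl5 also without undifferentiated replicate 3 (0.0508) and that of Ccl28 without undifferentiated replicate 2 (0.0517). The call of Ccl27a there was lost without undifferentiated replicate 1 or MIZ replicate 2 (0.0607 and 0.0562). The causes were not tested. Ligands with few counts, such as Ccl24, Cxcl13 and Ccl17, are limited by depth.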

Other observations

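Markers of further cell types were also measured. The summed CPM of 7 endothelial markers was 79.3 to 101 in undifferentiated, 8.43 to 10.5 in vehicle and 4.94 to 5.41 in MIZ libraries, and that of 6 mast cell markers, 3 of them at 0 throughout, was at most 1.51. Mesothelial markers summed to 3.32 to 3.45, 12.5 to 16.6 and 10.1 to 11.7 CPM. Lymphatic markers summed to 106 to 107, 83.8 to 119 and 172 to 204 CPM. Pdpn made up most of this sum, with means of 102, 104 and 177 CPM in the same order of groups. Of the 4 markers, 3 were higher in MIZ than in vehicle cells (edgeR), beside 35.9% of all genes. Among them, Flt4, which encodes the receptor VEGFR-3, had 1.13, 0.880 and 0.734 CPM in vehicle and 14.2, 15.6 and 13.8 in MIZ libraries (4.03 ± 0.15, adjusted p = 1.06e-09). Lyve1, another marker of lymphatic vessels, had means of 0.300 and 0.11 CPM in the same groups.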
